A study of Drosophila melanogaster with 3 samples.

Results

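This account covers the nuclear pore and nuclear transport genes of Drosophila melanogaster, and where along them the ind-eGFP protein was bound in whole embryos. The group holds the protein-coding genes of the Ensembl BDGP6 annotation whose symbol begins with Nup and a digit, plus a named set of other pore proteins, Ran cycle proteins and transport receptors. It came to 40 of 13968 protein-coding genes, with the basket protein Mtor matched through a table of older names to its current symbol Mgtor. What was measured is where ind-eGFP sat on the chromatin, by immunoprecipitation and sequencing of the bound DNA (ChIP-seq), given as lists of peaks. The flies were a transgenic line stably expressing ind with GFP, here eGFP, fused to its C-terminal end, and an anti-GFP antibody was used for the immunoprecipitation. Embryos of 0 to 16 hours and of both sexes were pooled and taken whole, in 3 biological replicates from separate biosamples, which made up the only group. A peak can therefore come from any of the cells in the embryo, and the fusion protein was read in place of the untagged protein. The authors used a control in making the lists, and its own data were not analysed here.

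The nuclear pore complex is a ring-shaped channel through the nuclear envelope, built of proteins called nucleoporins. Its outer rings, also called Y complexes, and its inner ring form the scaffold, while nucleoporins rich in phenylalanine-glycine repeats fill the channel and make the barrier. Soluble receptors of the karyopherin family, the importins and exportins, carry cargo through the channel, and the small GTPase Ran, bound to GTP in the nucleus and to GDP in the cytoplasm, gives the transport its direction. These genes are used in nearly every cell of the embryo. The gene ind, intermediate neuroblasts defective, encodes a homeodomain transcription factor that patterns the column of neural precursors between the ventral and dorsal ones in the embryonic nervous system.

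Where the sequence of a bound region helps to see what lies there, it is printed 5′ to 3′ on the strand of the gene, from the RefSeq Release 6 assembly (dm6), for several of the strongest promoter peaks and for some peaks with a homeodomain core or a promoter element. Bases annotated as untranslated regions were left out, so some stretches are shorter than the 200 bases around the summit, the point of highest signal in a peak. Capitals mark TAATTA, the core recognised by many homeodomain proteins, TATCGATA, the core of the DNA replication-related element (DRE) of housekeeping promoters, CAGCTG, an E-box, or TATAAA, the TATA box, on either strand.
RanGAP, chr2L:19444789-19444951, plus strand: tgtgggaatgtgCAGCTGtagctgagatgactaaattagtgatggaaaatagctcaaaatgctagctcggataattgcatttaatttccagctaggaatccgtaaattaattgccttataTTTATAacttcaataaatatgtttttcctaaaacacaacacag
Nup37 and Nup358, chr3R:25247515-25247628, plus strand: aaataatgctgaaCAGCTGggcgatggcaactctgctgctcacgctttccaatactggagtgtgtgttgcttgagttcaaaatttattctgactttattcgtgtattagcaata
Kap-alpha3, stronger peak, chr3R:9577734-9577889, minus strand: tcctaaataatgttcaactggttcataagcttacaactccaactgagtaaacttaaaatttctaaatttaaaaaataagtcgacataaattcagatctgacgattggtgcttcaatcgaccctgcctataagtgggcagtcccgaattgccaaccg
Kap-alpha3, weaker peak, chr3R:9577893-9578041, minus strand: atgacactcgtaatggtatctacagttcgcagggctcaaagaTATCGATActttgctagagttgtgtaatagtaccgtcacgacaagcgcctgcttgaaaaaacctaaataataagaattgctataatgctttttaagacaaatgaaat
Nup107, chr2L:10737226-10737344, minus strand: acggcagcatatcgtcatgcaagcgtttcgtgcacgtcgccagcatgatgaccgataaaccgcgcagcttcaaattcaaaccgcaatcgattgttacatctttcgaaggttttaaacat
Tnpo, chr3L:6193232-6193431, plus strand: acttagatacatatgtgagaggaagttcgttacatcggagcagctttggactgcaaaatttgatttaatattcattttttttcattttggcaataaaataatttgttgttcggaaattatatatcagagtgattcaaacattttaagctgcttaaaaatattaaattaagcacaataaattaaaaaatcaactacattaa
Nup160, chr2L:11123632-11123776, plus strand: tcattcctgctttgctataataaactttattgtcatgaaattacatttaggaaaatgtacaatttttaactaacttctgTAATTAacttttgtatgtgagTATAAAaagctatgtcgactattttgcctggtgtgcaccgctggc
Nup133, chr3R:22690385-22690584, plus strand: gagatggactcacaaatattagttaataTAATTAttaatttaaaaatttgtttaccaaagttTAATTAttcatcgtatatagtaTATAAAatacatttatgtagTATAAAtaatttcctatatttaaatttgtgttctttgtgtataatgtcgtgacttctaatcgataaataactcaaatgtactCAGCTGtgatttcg
Nup93-2, weaker peak, chr3R:14898531-14898730, minus strand: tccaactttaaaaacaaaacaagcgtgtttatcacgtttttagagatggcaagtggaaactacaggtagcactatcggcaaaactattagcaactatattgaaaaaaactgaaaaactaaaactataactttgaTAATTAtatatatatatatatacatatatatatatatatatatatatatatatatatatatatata
Cse1, chr2L:16826965-16827077, minus strand: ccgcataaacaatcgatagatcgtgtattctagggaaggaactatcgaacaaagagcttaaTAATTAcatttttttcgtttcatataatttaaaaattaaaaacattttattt

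The stretches below come from the promoters of 2 genes of the group whose own start region holds the DRE. Both stretches are shown because this element fell mostly to genes of the group without a peak. Of the 2, Fs(2)Ket had no peak in the authors' optimal list, while Rcc1 had one. Capitals mark TATCGATA.
Fs(2)Ket, chr2L:20734814-20734873, plus strand: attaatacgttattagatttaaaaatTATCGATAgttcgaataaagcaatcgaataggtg
Rcc1, chr3L:5932842-5932901, minus strand: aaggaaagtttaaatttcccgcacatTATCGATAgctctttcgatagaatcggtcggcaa

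Whether ind-eGFP peaks lay at these genes was read from the authors' optimal list of 5809 peaks, which keeps the peaks whose ranks held up between replicates (the irreproducible discovery rate, IDR). Genes were counted as having a peak if the body or the 2000 bp upstream held a summit. By this rule 25 of the 40 pore and transport genes had a peak (62.5%), against 34.2% of all protein-coding genes. In the 5809 strongest peaks of each replicate, peaks fell to 25 genes of the group in replicate 1, 22 in replicate 2 and 25 in replicate 3, against 34.9%, 33.0% and 34.6% of all coding genes in the same order. The share was 60.0% ± 4.33 in the group and 34.1% ± 0.978 in other coding genes (SD, n = 3 replicates). The series has 1 group and no contrast between conditions, so these shares are a description and no test was made.

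The size of the difference depended on how a peak was tied to a gene, and the group as a whole stayed above the background under every rule tried. With 500 bp upstream the group had 17 genes with a peak (42.5%), against 29.5% of all coding genes. With the gene body alone it had 8 (20.0%), against 13.8%. When each peak counted only for the coding gene with the nearest start, 14 genes of the group had a peak (35.0%), against 26.8%. With the strongest 2904 peaks it had 16 (40.0%), against 22.0%. With the optimal peaks found in all 3 replicates it had 18 (45.0%), against 27.1%. With promoter peaks, those within 500 bp of any annotated start, it had 22 (55.0%), against 28.4%. The genes' own starts lay within 500 bp of a summit for 16 of 40 (40.0%), against 23.9% of all coding genes.

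**Figure D1:**
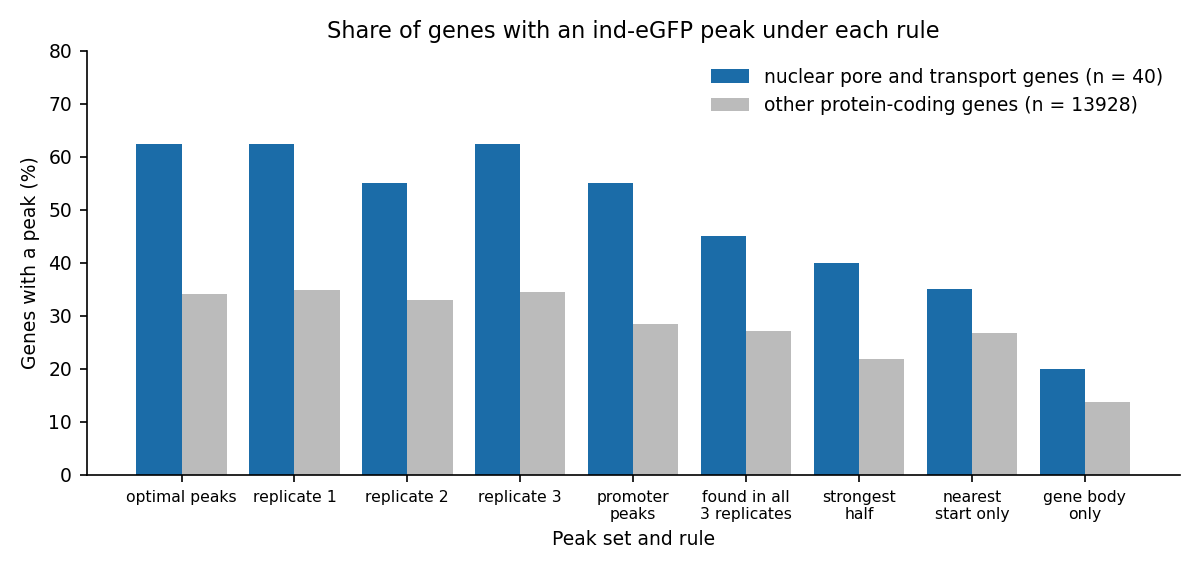
Share of genes with a peak under each rule for tying a peak to a gene, in percent of the genes, for the 40 pore and transport genes and for the 13928 other protein-coding genes. The pore and transport genes lie above the other genes under every rule plotted, by the most in the strongest peaks of replicates 1 and 3 and in the main rule, at 62.5% in each.

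The pore and transport genes had a median length of 3223 bp, against 2161 bp in other coding genes, and the part of length in the count was not tested. Among genes within the quartiles of the group's length, 15 of 20 pore and transport genes had a peak (75%), against 1363 of 3452 other coding genes (39.5%). Among all other coding genes within the group's range of lengths, 36.9% had a peak.

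Among the roles, the outer ring had a peak at 9 of 10 genes, the nuclear basket at none of 3 and the transmembrane proteins at none of 2. The Ran cycle had peaks at 3 of 3, the importin alphas at 2 of 3 and the importin beta and other karyopherins at 4 of 5. The inner ring had peaks at 3 of 6, the central channel at 2 of 3 and the cytoplasmic side at 2 of 5. Taken as wider classes, 9 of 11 soluble transport factors (81.8%) and 16 of 29 structural pore proteins (55.2%) had a peak. All protein-coding genes stood at 34.2% by the same rule. These counts are small, and no difference between roles was tested.

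**Figure D2:**
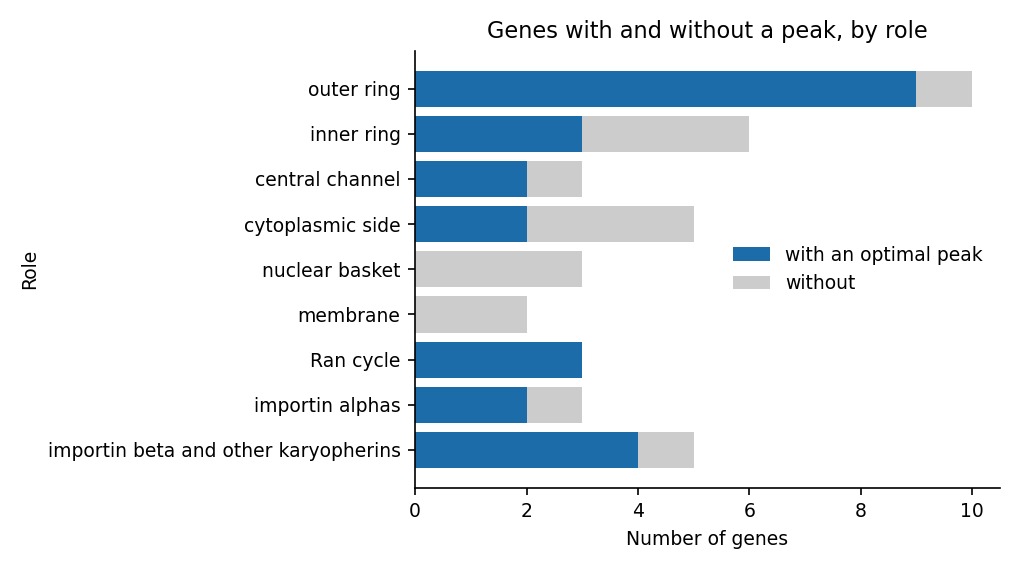
Number of genes with a peak in the authors' optimal list and without one, by role in the pore or in transport. The outer ring has 9 of 10 genes with a peak, and the nuclear basket and membrane roles have none.

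Signal is given as a peak's deposited signal divided by the median of its list, so that 1 is the middle peak of the optimal list. For a replicate, the peak with its summit within 200 bp was taken, and its signal was set against the median signal of all optimal peaks that had a match there. The strongest peak per gene had a median relative signal of 1.43 over the 25 genes with a peak (0.543 to 4.59), against 1.30 over 4757 other coding genes with a peak. In the replicates the median was 1.44, 1.39 and 1.48, so the 3 replicates gave nearly the same middle value. The highest peak of the group was far from the top of the list, which reached 27.1.

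**Figure D3:**
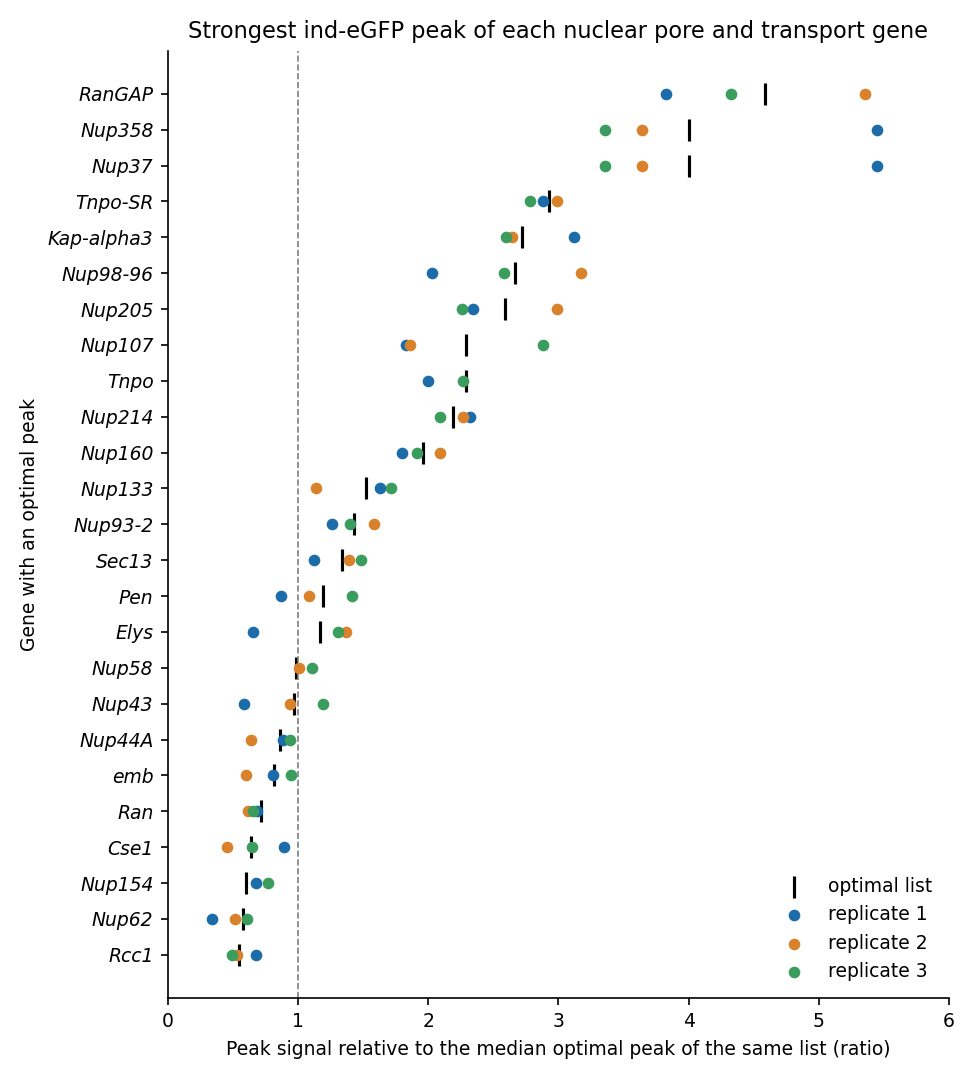
Relative signal of the strongest peak of each of the 25 pore and transport genes with a peak, on a linear axis, with a bar for the optimal list and a dot for each replicate, genes in order of their optimal signal. The dashed line at 1 is the middle peak of a list, and Tnpo, Nup58 and Nup154 lack a dot where a replicate had no matching peak. RanGAP and the peak shared by Nup37 and Nup358 stand highest, at 4.59 and 4.00 in the optimal list.

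Among the Ran cycle genes, RanGAP, which makes Ran hydrolyse its GTP in the cytoplasm, had the strongest peak of the group, at 2L from 19444670 to 19445087. Its relative signal was 4.59 in the optimal list (rank 185 of 5809) and 3.83, 5.36 and 4.33 in replicates 1, 2 and 3 (mean 4.51 ± 0.783, SD, n = 3). All 3 replicates placed it far above their median peak. The summit lay inside the RanGAP gene, 159 bp upstream of an annotated internal start and 139 bp upstream of the start of Hs2st, a heparan sulfate sulfotransferase gene on the other strand, with 2930 bp between it and the start at the gene's upstream end. Ran itself, the GTPase, had peaks of 0.716 and 0.596, below the middle of the list. Its stronger peak stood at 0.685, 0.617 and 0.653 in replicates 1, 2 and 3, close together, inside the gene and 356 bp upstream of an internal start. The weaker lay inside the gene Lint-1, 58 bp upstream of an internal start of that gene and 670 bp from the Ran start. Rcc1, the chromatin-bound exchange factor that loads Ran with GTP, had the weakest peak of the group, 0.543 (rank 5776 of 5809), at 0.679, 0.527 and 0.489 in replicates 1, 2 and 3. It was found among the strongest 5809 peaks of replicate 1 only. Its rank was next to the end of the optimal list, and the nearest pooled peaks of the group beyond that end were at Nup107 (0.500), Nup58 (0.496), Nup35 (0.481) and Nup153 (0.447).

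The outer ring held the peak of Nup37, a WD-repeat subunit of the Y complex, at 3R from 25247371 to 25247679. Its relative signal was 4.00 in the optimal list and 5.45, 3.64 and 3.36 in replicates 1, 2 and 3 (mean 4.15 ± 1.13, SD, n = 3). Replicate 1 was the highest of the 3 and all stood above 3. The summit lay 129 bp upstream of the Nup37 start and 15 bp upstream of the start of RpS27, a small-subunit ribosomal protein gene on the other strand. It also counted for Nup358, the large cytoplasmic filament protein that binds Ran, whose own start lay 1819 bp away. The same held for a weaker peak of 0.629, which stood at 0.867, 0.407 and 0.256 in replicates 1, 2 and 3 and was highest in replicate 1 there too.

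Nup98-96, whose transcript encodes the repeat protein Nup98 and the scaffold protein Nup96, had peaks of 2.67 and 1.87. Its stronger peak, at 3R from 23781417 to 23781743, stood at 2.03, 3.17 and 2.58 in replicates 1, 2 and 3 (mean 2.59 ± 0.567, SD, n = 3). Its summit lay 54 bp inside the gene and 198 bp from the start of the neighbour mbc, and the weaker summit lay in an intron of mbc. Both peaks were found in all 3 replicates, with replicate 1 the lowest in each.

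Nup107, the central subunit of the Y complex stem, had a peak of 2.29 at 2L from 10737199 to 10737446. It stood at 1.83, 1.86 and 2.88 in replicates 1, 2 and 3, with replicate 3 the highest (mean 2.19 ± 0.601, SD, n = 3). That summit lay 1254 bp from the Nup107 start but 20 bp from the start of CG12299 and 282 bp from that of Vha16-5, a subunit of the proton pump. Nup160, which sits in the Y complex arm, had a peak of 1.96 at 2L from 11123598 to 11123838, at 1.80, 2.09 and 1.91 in replicates 1, 2 and 3 (mean 1.93 ± 0.147, SD, n = 3). Its values differed little between replicates, and its summit lay 45 bp upstream of its own start, with the start of Csl4, an exosome subunit gene, 165 bp away on the other strand.

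Nup133, the end of the Y complex stem, had a peak of 1.52 at 3R from 22690409 to 22690624, at 1.63, 1.14 and 1.71 in replicates 1, 2 and 3 (mean 1.49 ± 0.307, SD, n = 3). Replicate 2 was the lowest. The summit lay 122 bp from the Nup133 start and 105 bp from that of wfs1. The other outer ring genes had strongest peaks from 0.857 to 1.34, namely Sec13 at 1.34, Elys at 1.17, Nup43 at 0.967 and Nup44A at 0.857. Sec13, a protein shared with the COPII coat, was the gene of the group with the most peaks, 3, of which the weaker ones lay in its intron at 0.839 and 0.556. Elys, which recruits pores to chromatin, shared its peak with Ranbp21, whose start lay on the other strand, and it was weaker in replicate 1 (0.653) than in replicates 2 and 3 (1.37 and 1.31). Nup75, the remaining outer ring gene, had no peak.

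In the inner ring, Nup205, a large scaffold protein, had the strongest peak, 2.59 at X from 19850559 to 19850841, at 2.34, 2.99 and 2.26 in replicates 1, 2 and 3 (mean 2.53 ± 0.400, SD, n = 3). It was found in all 3, with its summit in an intron of pico, 1507 bp from the Nup205 start. Nup93-2 had peaks of 1.43 and 1.21 between its start and that of CG3817. Nup154 had a peak of 0.601, 10 bp from a start of the ribosomal protein gene RpL9 and 657 bp from its own, and replicate 2 had no summit within 200 bp of it.

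On the cytoplasmic side, Nup214, a repeat protein that acts in export at the pore's outer face, had a peak of 2.19 at 2R from 22926090 to 22926463. It stood at 2.32, 2.27 and 2.09 in replicates 1, 2 and 3 (mean 2.23 ± 0.120, SD, n = 3), nearly equal in all. The summit lay in the gene ReepA, 272 bp from a start of that gene and 1539 bp from the Nup214 start. In the central channel, Nup58, a repeat protein of the channel, had the stronger peak, 0.981, with 1.01 and 1.11 in replicates 2 and 3 and no summit within 200 bp in replicate 1, where the nearest lay 277 bp away. Nup62, its partner in the channel, had a peak of 0.577, which was low in all 3 replicates, at 0.334, 0.513 and 0.608.

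Among the importin alphas, which link cargo to importin beta, Kap-alpha3 led with 2.72 at 3R from 9577658 to 9578056, at 3.12, 2.64 and 2.60 in replicates 1, 2 and 3 (mean 2.79 ± 0.292, SD, n = 3). All 3 replicates held it near the same level. Its summit lay 56 bp upstream of its start, and another optimal peak of 1.36 in the same interval had its summit 203 bp away, 50 bp from the start of the neighbour Son. Replicate 2 held a summit that matched both of these, so that value is shared. Pen, the other importin alpha with a peak, had 1.19 in its intron, 540 bp downstream of its start, at 0.865, 1.08 and 1.41 in replicates 1, 2 and 3.

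Among the karyopherins, Tnpo-SR, which imports the serine-arginine-rich splicing factors, had a peak of 2.93 at 2L from 2759630 to 2759947, at 2.88, 2.99 and 2.78 in replicates 1, 2 and 3 (mean 2.89 ± 0.106, SD, n = 3). Its replicates were the closest together among the genes named here with a mean over 2. The summit lay 144 bp from its start and 103 bp from that of Snapin. Tnpo, the transportin receptor of RNA-binding proteins, had 2.29 at 3L from 6193172 to 6193470, at 2.00 in replicate 1 and 2.27 in replicate 3. In replicate 2 the nearest summit lay 3564 bp away, so this peak rests on 2 replicates. The exportin emb, the export receptor for leucine-rich signals, had 0.818, at 0.806, 0.597 and 0.948 in replicates 1, 2 and 3. Cse1, which returns importin alpha to the cytoplasm, had 0.641 at the start of AspRS-m, 1845 bp from its own.

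The other 15 genes of the group had no optimal peak. They were Nup75 in the outer ring, Nup188, Nup35 and Nup93-1 in the inner ring, Nup54 in the channel, Aladin, Rae1 and mbo on the cytoplasmic side, the basket proteins Mgtor, Nup153 and Nup50, the membrane proteins Gp210 and Ndc1, and the receptors Kap-alpha1 and Fs(2)Ket. For 10 of them the pooled relaxed list of all 3 replicates held no peak either. In the relaxed replicate lists, which also hold background, 4 of the 15 had a peak in 3 replicates, 3 in 2 replicates, 7 in 1 replicate and mbo in none. Their best ranks were 3218 for Fs(2)Ket in replicate 2, 4610 for Nup50 in replicate 1, 5411 for Nup35 in replicate 3, 5687 for Nup153 in replicate 2 and 5772 for Nup93-1 in replicate 1. The other 10 stayed beyond the strongest 5809 peaks of every replicate.

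The peaks of the group lay at transcription starts. Of 31 distinct peaks, 25 were at promoters (80.6%), against 47.9% of the 5778 other optimal peaks, and the remaining 6 were in introns. The median distance from summit to the nearest start was 93.0 bp, against 564 bp in other optimal peaks, and 23 of 31 (74.2%) lay within 200 bp, against 33.4%. Among promoter peaks alone the median distance was 72.0 bp in the group, against 127 bp in the others, and the median relative signal 1.34, against 1.13. The rule for the group reaches upstream of a gene by 2000 bp and no farther, which itself favours starts. The other optimal peaks had no such limit and included 780 intergenic and 2144 intron peaks. A comparison with only those in reach of other coding genes was not made. Because the nearest coding start belonged to a gene of the group in 16 of the 31 peaks and to another gene in 15, and 28 of 31 were also in reach of another coding gene, most of these peaks cannot be assigned to the pore or transport gene alone.

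**Figure D4:**
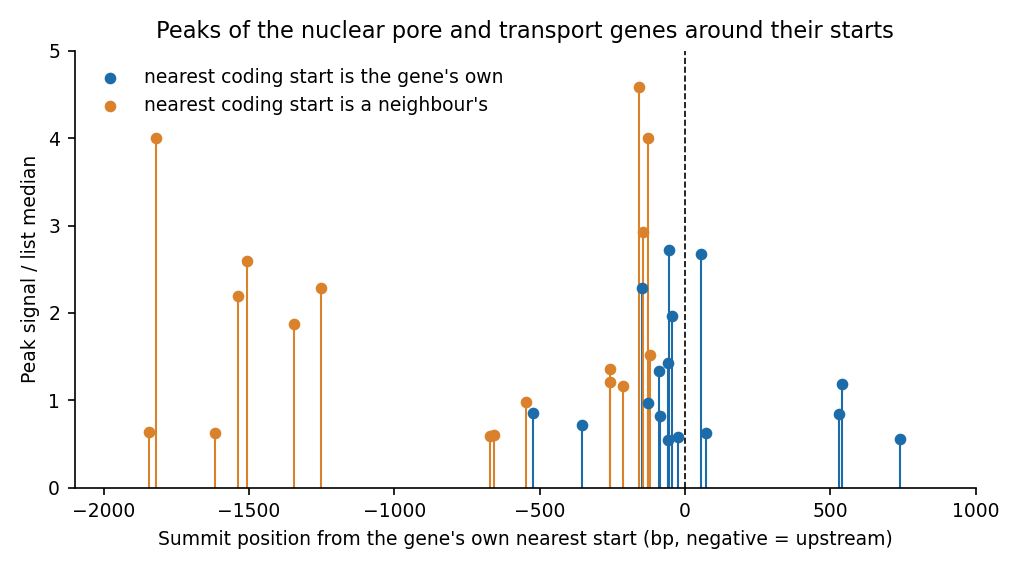
Position of each summit, in bp from the nearest start of its pore or transport gene with upstream negative, against the relative signal of the peak, with orange for peaks whose nearest coding start belongs to another gene. The peaks shared by Nup37 and Nup358 are drawn for each of them. The RanGAP peak lies 159 bp from an internal start of that gene. The stronger Nup37 peak lies 129 bp from the Nup37 start and is drawn for Nup358 at 1819 bp. The peaks of Nup214, Nup205 and Nup107 lie 1254 to 1539 bp away.

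Pairs of genes read in opposite directions were common here. A coding start on each strand lay within 500 bp of the summit in 18 of 25 promoter peaks (72.0%), against 989 of 2767 other promoter peaks (35.7%), and within 250 bp in 11 (44.0%), against 21.2%. At Kap-alpha3, Nup93-2 and Nup37, pairs of these peaks lay 200 to 203 bp apart at the same starts, so these promoters entered the 18 more than once. How often this held among the other promoter peaks was not counted. A coding gene on the other strand began within 500 bp upstream of an annotated start, internal starts included, of 25 of the 40 genes (62.5%), against 27.2% of other coding genes. Of these 25, 17 had a peak (68.0%), against 53.2% of other coding genes with such a neighbour. Without such a neighbour, 8 of 15 had a peak (53.3%), against 27.0%. A summit within 500 bp of an own start was found for 14 of the 25 genes with such a neighbour (56.0%), against 47.0%. For genes without one it was found for 2 of 15 (13.3%), against 15.2%, so there the group was not above other coding genes. Nup37 with RpS27, Tnpo with Sf3b6 and emb with fy were such pairs with a peak, and RanGAP with Hs2st was one by an internal start, since Hs2st begins inside RanGAP.

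Of the 31 peaks 22 were found in all 3 replicates (71.0%), against 70.1% of other optimal peaks. With a summit within 200 bp as the match, the group stood at the share of the list. The optimal list was itself drawn from these replicates, so such agreement is partly built in. The weaker Nup37 peak is among the 22, though its nearest summits ranked 7776 in replicate 2 and 13073 in replicate 3. There it matched the summit of the stronger peak, and the Kap-alpha3 peaks shared a summit in replicate 2. How often this held among other optimal peaks was not counted. A further 7 were found in 2 replicates and 2 in 1. Replicate 1 held 27 of them, replicate 2 held 25 and replicate 3 held 30. The median coefficient of variation of the replicate values was 21.2% in the group and 17.4% in other optimal peaks.

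Motifs were sought as exact letters on both strands within 100 bp of each summit. TAATTA stood in 6 of 31 windows (19.4%), against 18.1% of other optimal peaks, and TATAAA in 12 (38.7%), against 37.6%. The E-box CAGCTG stood in 5 (16.1%), against 8.08%, among them RanGAP and Nup37, and the letters GGTCACAC, the core of a housekeeping promoter element, in 4 (12.9%), against 2.09%. Those 4 peaks were at Nup93-2, Cse1, Nup62 and Rcc1, of which only 1 was found in all 3 replicates. TATCGATA stood in 1 (3.23%), against 3.79%, at the weaker Kap-alpha3 peak, and GAGAGAG in none, against 2.75%. The composition control AAAAAA stood in 14 (45.2%), against 48.5%, and the windows held 64.8% A and T, against 65.0%. Since the group's peaks lay more often at promoters, the shares were also taken over its 25 promoter peaks and the 2767 others. There TATCGATA stood in 4.00% of the group's peaks, against 7.59%, GGTCACAC in 16.0%, against 3.76%, and CAGCTG in 16.0%, against 11%. TAATTA stood in 24.0%, against 18.4%, TATAAA in 36.0%, against 38.2%, GAGAGAG in none, against 3.22%, and AAAAAA in 44.0%, against 46.2%.

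At the genes' own promoters, from 250 bases before to 50 after the canonical start, TATCGATA was more often at the genes of the group that had no peak. It stood in 3 of 25 genes with a peak (12%) and in 8 of 15 without (53.3%), against 12.5% of other coding genes with a peak and 7% of those without. The 3 were Nup58, Rcc1 and Tnpo-SR, and the 8 were Kap-alpha1, Fs(2)Ket, Gp210, Nup54, Mgtor, Nup50, Nup188 and Nup75. This element was looked at after its values were seen and no test was made. Of the 8, 6 lie on arm 2R, where 6 of 10 genes of the group held the element, against 7.99% of other coding genes there. On 2R it stood in 0 of 3 genes of the group with a peak and 6 of 7 without, and on the other arms in 3 of 22 with a peak and 2 of 8 without. Most of the difference between genes with and without a peak therefore rests on 2R. TAATTA stood in the own promoter of 6 of 25 genes with a peak (24.0%) and 6 of 15 without (40.0%), against 20.5% and 19.8% of other coding genes.

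**Figure D5:**
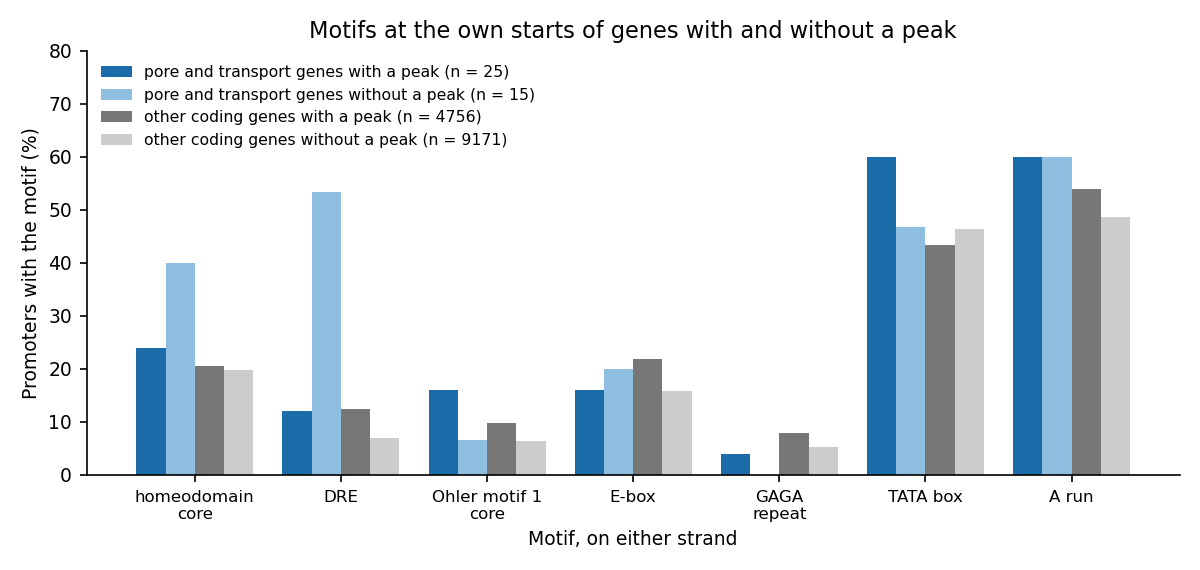
Share of promoters holding each motif, in percent, for pore and transport genes with and without a peak and for other coding genes with and without a peak, where DRE is TATCGATA, the homeodomain core TAATTA, Ohler motif 1 GGTCACAC, the GAGA repeat GAGAGAG and the A run AAAAAA. The DRE stands in 53.3% of the pore and transport genes without a peak, and in 12% of those with one.

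The genes with a peak were spread unevenly over the arms. Peaks fell to 8 of 9 genes of the group on 2L, 9 of 11 on 3R, 2 of 3 on 3L, 3 of 7 on X and 3 of 10 on 2R. Other coding genes stood at 32.9% on 2L, 36.0% on 3R, 34.6% on 3L, 37.5% on X and 30.8% on 2R. The group's share on 2R was thus near that of the other genes there.

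Other genes of nuclear transport and mRNA export, a separate list of 28 names with 26 matched, had a peak at 7 (26.9%), against 62.5% in the pore and transport group and 34.2% of all coding genes. The strongest were at msk (2.57), an importin of signalling proteins, Karybeta3 (1.85), an importin beta family member, e(y)2 (1.38), a subunit shared by the SAGA and mRNA export complexes, and Hel25E (1.21), the export helicase, whose peak lay nearest to the start of Lam. These genes had a median length of 3307 bp, and 13 of 26 had a coding gene starting within 500 bp on the other strand. Ranbp21, also among the 7, had the peak of 1.17 that was counted for Elys too, so the lists share that peak. The difference between the lists was not tested.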

How the data were processed

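By the notes that came with the deposited files, each replicate's alignment was compared with a control to give a permissive peak list, the 3 alignments were pooled for another, and the optimal list was drawn from these by IDR. The signal of each peak and its q-value on the −log10 scale are the authors' own, as deposited. Aligner, peak caller and depth: not given in the sources used here. No interval that needs depth is therefore printed. The permissive list of replicate 1 held exactly 30000 peaks.

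The dm6 lists were joined to the Ensembl BDGP6 annotation (release 115) of the same assembly. A peak was its summit, in 1-based positions. A peak was found in a replicate when its summit lay within 200 bp of a summit among that replicate's 5809 strongest peaks. Relative signals divide by list medians. The signal served only to describe and rank peaks within a list. Promoter windows were had for 13967 coding genes, and motifs were exact letters on either strand. The sequences of some regions are not reported here. The joins and counts were checked on simulated data. Every gene of the group is accounted for by role, the 12 with the strongest peaks and the leading gene of each role are given with all replicates, and up to 4 genes of the second list are named. The members, gene lists and motifs were chosen with earlier results of these data known. Analyses used Python 3.11.15, numpy 2.4.6, pandas 2.3.3 and matplotlib 3.10.9. No test was made, since the 3 samples form 1 group.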

Additional observations from a re-analysis of the deposited data

How the results depend on the processing

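The count of genes of the group with a peak was 25. It came to 8 with the gene body alone, 14 with the nearest coding start only and 16 with the strongest 2904 peaks. With a replicate left out, an optimal peak counted only if found in both others, which is stricter than the main rule. The count then lay between 18 and 21 (45.0% to 52.5%), against 27.8% to 30.1% of other coding genes. The peaks found in all replicates numbered 22, shared summits included. They numbered 12 when intervals had to overlap by 50% of both, and between 22 and 26 when only the other replicates were required with 1 left out. These counts were not made for other optimal peaks, so they cannot be read as a trait of the group. The median strongest relative signal was 1.43 in the optimal list, 1.27 relative to promoter peaks and 1.21 over all peaks of the group, and its rank percentile was 69.0. As a mean over replicates it was 1.41, between 1.33 and 1.43 with a replicate left out. Motif shares moved with the window. The shares that follow are of the group's peaks only. Those of other optimal peaks at the same settings are not given here, so no difference from them can be read. With 50 bp on each side GGTCACAC stood at 6.45%, CAGCTG at 6.45%, TATAAA at 12.9% and AAAAAA at 16.1%. With 200 bp on each side TAATTA stood at 25.8%, TATCGATA at 6.45%, GGTCACAC at 29.0%, CAGCTG at 22.6%, GAGAGAG at 9.68%, TATAAA at 64.5% and AAAAAA at 71.0%, since a wider window holds more letters. Over the peaks found in all 3 replicates GGTCACAC stood at 4.55% and CAGCTG at 22.7%, and the cause was not tested. The remaining settings gave 28 values within the spread or within 1.5 times the count reported.

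Alternatives chosen after seeing the data were other promoter windows for TATCGATA, which gave 8 to 10 genes without a peak and 2 to 4 with one, and starts within 250 bp, which gave 11 peaks with starts on both strands, against 18. No paired analysis was possible because the series has 1 group. Read depth is unknown, so a gene without a peak is a gene with none called, and an absence of binding cannot be read from it. Neighbouring genes share peaks, and 15 of 31 peaks lay nearer to another gene's start.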
